A study of Mus musculus with 2 samples.

Results

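The miR-23, miR-27 and miR-24 genes of the mouse lie in paired clusters, Mir23a, Mir27a and Mir24-2 on chromosome 8, and Mir23b, Mir27b and Mir24-1 on chromosome 13, where Mir3074-1 overlaps Mir24-1 on the other strand. These 7 genes were chosen by name, and 6 of them have a row among the 1973 miRNA genes of the count tables. Mir24-1 has no row here, and its locus was read from the opposite-strand counts at Mir3074-1. The data are microRNA-seq libraries, of RNA under 30 nucleotides, from the gut of healthy E16.5 mouse embryos (embryonic day 16.5) of the strain B6NCrl. Each of the 2 libraries came from intestine pooled over both sexes, with 41 embryos in replicate 2 and a number the labels do not give in replicate 1. The labels name them biological replicates of 1 group, with separate tissue samples and the same donor entry, so no conditions are compared and spread between the libraries is spread between these pools.

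A miRNA gene is transcribed into a hairpin, from which a mature miRNA of either arm (5p or 3p) is cut and loaded into Argonaute. Bases 2 to 8 of the mature miRNA, the seed, pair with target messenger RNAs, which are then repressed. The miR-23, miR-27 and miR-24 clusters arose by duplication and are known from endothelial cells and vessel growth, from muscle and from the response to TGF-beta. In cell and tissue studies, miR-27 is known to repress the adipocyte regulator Pparg, and miR-23 and miR-27 to repress inhibitors of vessel sprouting.

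RefSeq (GRCm38.p6, the assembly of mm10) gave hairpins for all 7 genes and 12 mature entries with 11 distinct sequences. The 3p miRNAs of the miR-27 and miR-24 genes are shown because a single base or no base at all tells these paralogs apart, and miR-23a-3p is shown with them. Sequences are written 5′ to 3′ with the seed in capitals.

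miR-23a-3p: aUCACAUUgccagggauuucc
miR-27a-3p: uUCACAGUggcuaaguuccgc
miR-27b-3p: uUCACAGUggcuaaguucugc
miR-24-3p: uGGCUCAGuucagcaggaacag

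The miR-27 pair shares its seed and its first 18 bases and differs by 1 substitution, C19U, counted from 1 at the 5′ end of miR-27a-3p. Neither of the 2 sequences lies in any other of the 1005 hairpins of the table. The miR-24-3p sequence is the same in Mir24-1 and Mir24-2. Its seed also occurs in miR-5124b, miR-6369, miR-6410 and miR-6413, and the genes of those 4 had 0 counts in both libraries. With 3 counts taken as the limit for a count of 0, the level could be up to 0.704 CPM (the count scaled by the total of gene counts) in replicate 1. The limit was 0.528 CPM in replicate 2.

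The 5p arms differ more and are shown because none of them recurs in the paralog's hairpin.

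miR-23a-5p: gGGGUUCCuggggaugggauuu
miR-23b-5p: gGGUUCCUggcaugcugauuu
miR-24-2-5p: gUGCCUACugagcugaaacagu
miR-24-1-5p: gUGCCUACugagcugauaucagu

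The miR-23 5p arms were identical in 18 of 23 aligned positions and have different seeds. The miR-24 5p arms share a seed and their first 16 bases, and were identical in 21 of 23 aligned positions. Each of these 4 sequences lies in 1 hairpin of the table on its own strand.

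How far a read of the 3p arm can be placed is seen in the Mir24-2 hairpin (chr8:84208815-84208921, plus strand, GRCm38.p6). Its capitals mark the 30 bases that recur at the Mir24-1 locus.

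Mir24-2 hairpin: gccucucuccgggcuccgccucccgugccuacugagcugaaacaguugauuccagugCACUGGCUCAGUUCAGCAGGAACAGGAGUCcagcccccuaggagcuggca

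The shared stretch holds the whole 22-base mature miR-24-3p with 3 more bases before it and 5 after it. The longest stretch shared by the Mir23a and Mir23b hairpins was 20 bases, and that of Mir27a and Mir27b was also 20. A window of 22 bases is longer than those stretches, so it could not recur within either pair. At that window, 0 of 54 windows of Mir23a and 0 of 66 of Mir27a recurred in any other hairpin. For Mir24-2 the count was 7 of 86 windows. Hairpins were searched on their own strand, where Mir24-2 shares 28 bases with the Mir24-1 hairpin. The 30 marked bases run past the end of that hairpin, so the count does not cover all of them. At a window of 18 bases, 3 of 58 windows of Mir23a, 3 of 70 of Mir27a and 11 of 90 of Mir24-2 recurred. These counts cover annotated hairpins only, not the rest of the genome. Reads that mapped to several loci are a row of their own in the tables, 26.2% and 25.7% of all reads in replicates 1 and 2, and are in no gene's count. Whether reads of miR-24-3p, or short reads of miR-23 and miR-27, are among them was not tested, since their sequences are not given.

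The chromosome 8 cluster spans 404 bases and is compact, with 79 bases between Mir23a (84208518 to 84208592, plus strand) and Mir27a (84208672 to 84208758), and 56 bases from there to Mir24-2. In GENCODE M21, Mir23a and Mir27a overlap no other gene. Mir24-2 overlaps Mir3074-2 on the minus strand and the edge of the long noncoding RNA Gm26532. The chromosome 13 cluster spans 792 bases, with 154 bases between Mir23b (63300484 to 63300557, plus strand) and Mir27b (63300712 to 63300784), and 423 bases from there to Mir24-1 (63301208 to 63301275). It lies inside the protein-coding gene 2010111I01Rik on the same strand. Mir23b is intronic in all 9 transcripts of that gene that span it. Mir27b lies in an exon, annotated as untranslated, of 1 of 9 transcripts, and Mir24-1 in exons of 4 of 11. An intron of Fancc runs over the cluster on the minus strand. Mir3074-1 (63301199 to 63301283, minus strand) covers the whole of Mir24-1.

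The hairpins of a paralog pair were alike only in part. Over their alignments, 73.8% of positions were identical for Mir23a and Mir23b, 61.1% for Mir27a and Mir27b, and 54.5% for Mir24-2 and Mir24-1, whose annotated lengths differ (107 and 68 bases). The chromosome 8 hairpins were richer in G and C, at 56.0% in Mir23a, 59.8% in Mir27a and 61.7% in Mir24-2, against 48.6% in Mir23b, 47.9% in Mir27b and 51.5% in Mir24-1. The predicted folding energy (RNAfold) was lower for Mir23a than Mir23b (-32.6 and -28.8 kcal/mol) but higher for Mir27a than Mir27b (-36.6 and -39.5 kcal/mol). For Mir24-2 and Mir24-1, whose lengths differ most, it was -49.0 and -26.3 kcal/mol.

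The libraries held 4261976 and 5680764 counts on the strand of a miRNA gene in replicates 1 and 2, and levels are CPM of these totals as mean ± SD (n = 2). Mature miRNAs of these genes are 21 to 23 bases long, so counts were compared between genes without scaling for length. Whether different sequences were captured equally well was not tested, so ratios and shares between genes are those of counts. The SD over the libraries does not cover this. Intervals are exact Clopper-Pearson 95% intervals of 1 library, and they cover counting error only. Known markers of the labelled tissue were present: 10 epithelial miRNA genes held 11.6% ± 1.06 of the counts and the smooth muscle pair Mir143 and Mir145a 17.6% ± 0.488. Nearly all of the pair's share was Mir143, with Mir145a at 2622 ± 340 CPM. Markers of other tissues were low, at 0.130% ± 0.0136 for 3 blood genes, 0.0721% ± 0.0386 for the hepatocyte Mir122 and 0.0110% ± 0.00157 for 5 striated muscle genes. In bulk tissue, fewer cells of a type and less RNA per cell cannot be told apart.

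Together the 6 rows of these clusters held 3.44% ± 0.230 of all miRNA gene counts, 3.61% in replicate 1 and 3.28% in replicate 2. The miR-23 genes made up 92.9% ± 0.124 of that, the miR-27 genes 6.45% ± 0.178, and Mir24-2 with Mir3074-1 the rest. The chromosome 13 rows took 65.5% ± 0.457 and the chromosome 8 rows 34.5% ± 0.457. Thus, in uniquely placed reads, the miR-23 rows outweighed all others of both clusters in both libraries. Reads that mapped to several loci are in no row. Whether those of miR-24-3p are among them, and how they would change these shares, was not tested.

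Mir23b was the most abundant member, at 21530 CPM in replicate 1 (91760 counts, interval 21392 to 21668 CPM) and 19446 CPM in replicate 2 (110470 counts, 19333 to 19560 CPM). It ranked 12 of 1973 genes (identifier ENSMUSG00000065599.1). Mir23a stood at 11928 CPM in replicate 1 (50836 counts, 11825 to 12031 CPM) and 11052 CPM in replicate 2 (62785 counts, 10966 to 11139 CPM), and ranked 21 (ENSMUSG00000065611.1). Both libraries of Mir23b lay above both of Mir23a. The ratio of Mir23b to Mir23a was 1.81 in replicate 1 and 1.76 in replicate 2 (1.78 ± 0.0322), a distance from 1 larger than the spread between the libraries.

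Mir27b stood at 2159 CPM in replicate 1 (9201 counts) and 1893 CPM in replicate 2 (10756 counts), a mean of 2026 ± 188 CPM at rank 74. Mir27a stood at 214 CPM in replicate 1 (912 counts) and 183 CPM in replicate 2 (1039 counts), a mean of 198 ± 21.98 CPM at rank 156. The 2 genes did not overlap, and Mir27b was 10.1 times Mir27a in replicate 1 and 10.4 times in replicate 2 (10.2 ± 0.186). The paralog ratio of miR-27 was therefore 5.74 ± 0.208 times that of miR-23 (5.59 and 5.88 in replicates 1 and 2). In both pairs the row on chromosome 13 was the higher, but by unequal factors. The miR-27 3p miRNAs share their first 18 bases, so a read that ended there could not be assigned to either gene. Short reads within the 20 bases shared by the Mir23a and Mir23b hairpins have the same limit. Both ratios are thus those of uniquely placed reads, and how many short reads they miss was not tested.

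Mir24-2 stood at 180 CPM in replicate 1 (769 counts, interval 168 to 194 CPM) and 188 CPM in replicate 2 (1070 counts, 177 to 200 CPM), a mean of 184 ± 5.60 CPM at rank 162. At the Mir24-1 locus, reads on the plus strand numbered 197 in replicate 1 (46.2 CPM, interval 40.0 to 53.1) and 241 in replicate 2 (42.4 CPM, 37.2 to 48.1). Here the order of the chromosomes was the other way round from miR-23 and miR-27: Mir24-2 was 3.90 times the Mir24-1 locus in replicate 1 and 4.44 times in replicate 2 (4.17 ± 0.379). The 2 values count reads that mapped to 1 locus only, and leave out those that mapped to several. They say nothing of how much miR-24-3p each locus made.

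**Figure D1:**
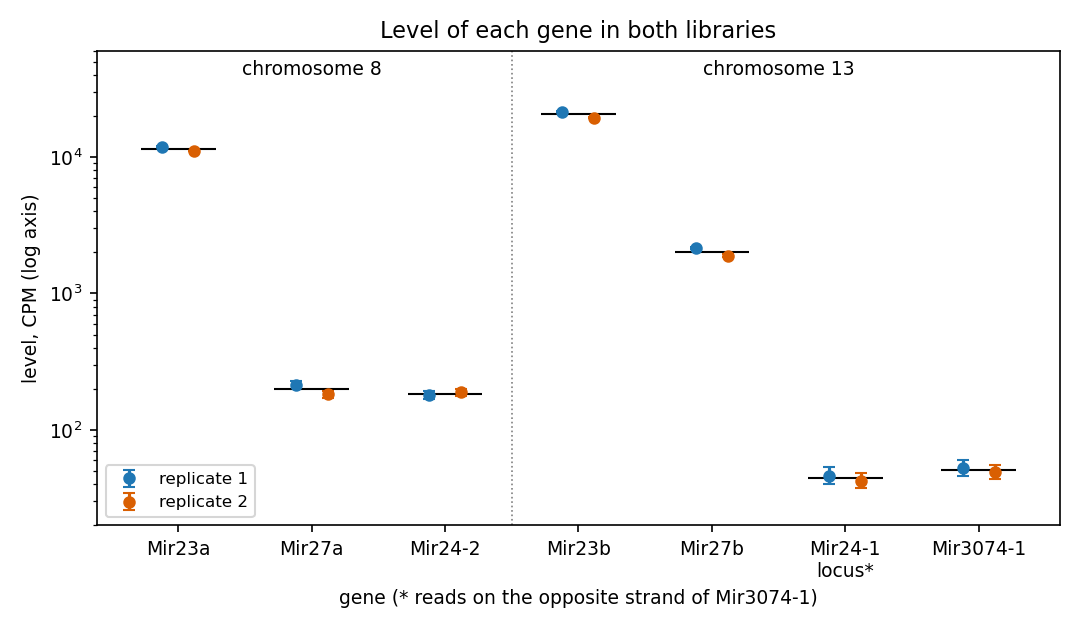
Level of each gene in CPM on a log axis, in replicate 1 (blue) and replicate 2 (orange), with exact 95% counting intervals as bars and the mean as a black line. Mir23b and Mir23a stand highest (means of 20488 and 11490 CPM), then Mir27b (2026 CPM), Mir27a and Mir24-2 (198 and 184 CPM), and both strands of the Mir24-1 locus (44.3 and 51.2 CPM).

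Mir3074-1, whose miR-3074-5p is cut from the strand opposite miR-24-3p, stood at 53.0 CPM in replicate 1 (226 counts, interval 46.3 to 60.4 CPM) and 49.3 CPM in replicate 2 (280 counts, 43.7 to 55.4 CPM), at rank 225. Its mature 5p miRNA is shown because it too recurs, in the Mir3074-2 hairpin on chromosome 8, within the same stretch of the other strand.

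miR-3074-5p: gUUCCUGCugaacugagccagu

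Of all reads at the Mir3074-1 row, 46.6% in replicate 1 (exact interval 41.7% to 51.5%) and 46.3% in replicate 2 (41.9% to 50.6%) lay on the strand of Mir24-1. Uniquely placed reads of Mir3074-1 were thus 1.15 ± 0.0103 times those of the Mir24-1 locus. In each library the counting intervals of the 2 strands overlap, although Mir3074-1 was the higher in both. The strand of each gene is that of GENCODE M21, not of the M4 annotation used for the counts. The chromosome 8 copy was different: opposite to Mir24-2, where Mir3074-2 lies, there were 0 of 769 reads in replicate 1, which allows a share of up to 0.390%, and 1 of 1071 reads in replicate 2 (exact interval 0.00236% to 0.519%). The other 4 rows, Mir23a, Mir27a, Mir23b and Mir27b, had 0 opposite-strand reads in both libraries. Outside these clusters, 18 of 367 genes with at least 20 counts over both strands had more than 1% of reads on the opposite strand, and 10 of them had more than the 46.3% of Mir3074-1.

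In order of level, the rows ran Mir23b, Mir23a, Mir27b, Mir27a, Mir24-2 and Mir3074-1, with the Mir24-1 locus last. Neighbours in this order did not overlap between libraries, with the exception of Mir27a and Mir24-2, whose ratio was 1.19 in replicate 1 and 0.971 in replicate 2. Their difference was within the spread of the replicates. With 2 values on each side, an exact permutation test could not reach the usual threshold, and none was run.

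Within a cluster, neighbouring genes differed widely in level. Mir23a was 55.7 and 60.4 times Mir27a in replicates 1 and 2, against 9.97 and 10.3 times for Mir23b over Mir27b. By uniquely placed reads, Mir23a held 96.8% ± 0.0347 of the rows of its cluster and Mir23b 90.8% ± 0.165. Mir27a held 1.67% ± 0.0958 and Mir27b 8.97% ± 0.170. The share of the miR-27 gene was thus higher on chromosome 13 in both libraries. This is no separate result. The ratio of Mir23a to Mir27a over that of Mir23b to Mir27b (5.74 ± 0.208) is the paralog comparison above, rearranged.

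**Figure D2:**
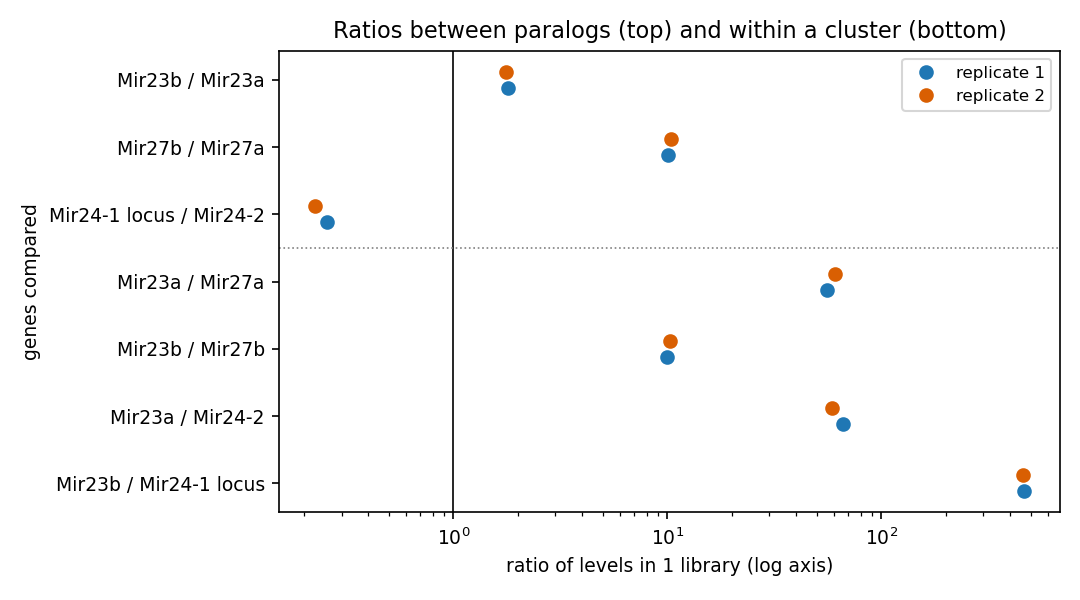
Ratios of levels in each library on a log axis, replicate 1 in blue and replicate 2 in orange, between paralogs (above the dotted line) and within a cluster (below it). The chromosome 13 gene is above 1 for miR-23 and miR-27 (1.78 and 10.2 on average) and below 1 for miR-24 (0.241), and Mir23a over Mir27a lies to the right of Mir23b over Mir27b.

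Other miRNA families also pair a gene that has an identical mature copy elsewhere with a neighbour in its cluster, and 4 of them (16 genes) were set beside Mir24-2. Mir24-2 reached 1.51% of the level of Mir23a in replicate 1 and 1.70% in replicate 2 (1.61% ± 0.135). The copies of miR-16, which restrains the cell cycle, reached 42.1% ± 6.16 of Mir15a for Mir16-1 and 32.5% ± 0.0171 of Mir15b for Mir16-2. The copies of the gut epithelial miR-194 reached 13.6% ± 1.28 of Mir215 and 53.1% ± 10.3 of Mir192, and those of miR-92a, of the proliferation-linked miR-17/92 clusters, 30.1% ± 8.78 of Mir20a for Mir92-1 and 32.8% ± 5.42 of Mir106a for Mir92-2. The collagen-repressing miR-29b had 3 and 4 counts at Mir29b-1 and 4 and 6 at Mir29b-2 in replicates 1 and 2. Mir29b-1 reached 0.726% of Mir29a in replicate 1 (exact counting interval 0.149% to 2.14%) and 0.692% in replicate 2 (0.188% to 1.78%). Mir29b-2 reached 1.13% of Mir29c (0.307% to 2.93%) and 1.07% (0.390% to 2.34%). By its share of its neighbour, Mir24-2 lay below the miR-16, miR-194 and miR-92a genes and above both miR-29b genes in both libraries, and the counting intervals of the miR-29b genes overlap those of Mir24-2 (1.41% to 1.62% and 1.60% to 1.81%). Mir27a, whose 2 mature sequences each lie in 1 hairpin, stood at 1.79% and 1.65% of Mir23a in replicates 1 and 2, values that overlap those of Mir24-2. A neighbour was chosen for each family by hand, and no test was made of these shares.

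**Figure D3:**
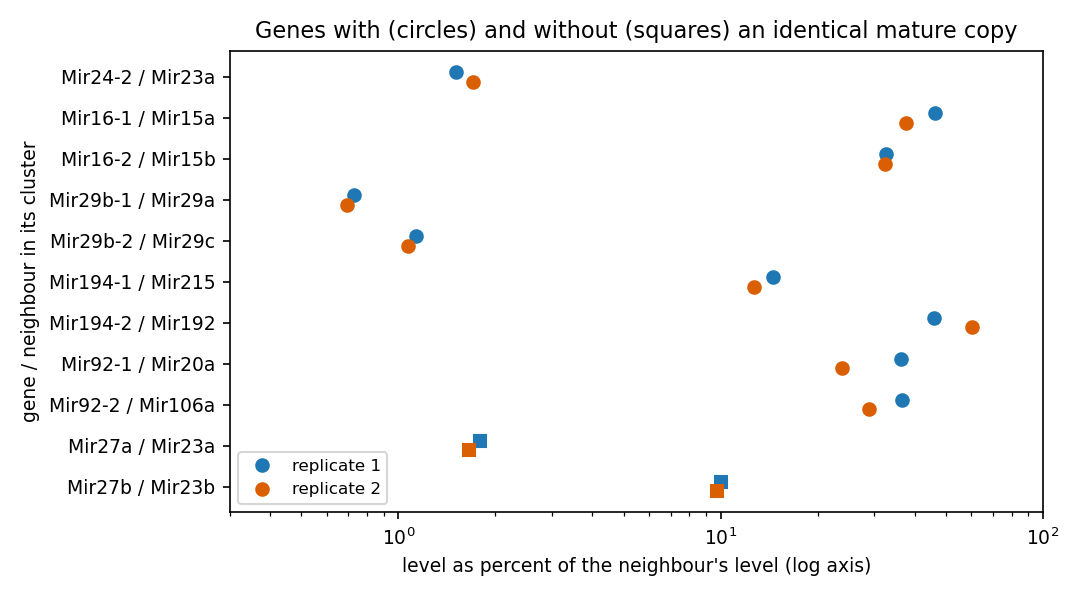
Level of a gene as a percent of its neighbour's level in the same cluster, on a log axis, for genes with an identical mature copy (circles) and for Mir27a and Mir27b, which have none (squares), in replicate 1 (blue) and replicate 2 (orange). The miR-29b genes, with 3 to 6 counts a library, sit lowest (0.692% to 1.13%), Mir24-2 and Mir27a between 1.51% and 1.79%, Mir27b near 10%, and the other genes between 12.7% and 60.4%.

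The miRNA genes nearest in level, by the distance of log2(CPM + 1) over both libraries, show the company these genes keep. Mir23b was nearest to Mir17 (20824 ± 1267 CPM, distance 0.04) and Mir130a (20043 ± 614 CPM, 0.15), and Mir23a to Mir99b (10639 ± 1924 CPM, 0.25) and Mir200b (10296 ± 518 CPM, 0.27). Mir27b was nearest to Mir708 (2034 ± 38.7 CPM) and Mir324 (2121 ± 122 CPM), Mir27a to Mirlet7a-1 (196 ± 18.1 CPM) and Mir669l (211 ± 19.9 CPM), Mir24-2 to Mir340 (186 ± 10.5 CPM) and Mir7-1 (187 ± 13.4 CPM), and Mir3074-1 to Mir331 (51.1 ± 5.05 CPM) and Mir701 (51.0 ± 2.38 CPM). With 2 libraries this is likeness of level alone.

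Beside a list of 10 miRNA genes known from vessels, of which 9 have a row, these clusters held fewer counts. The vascular genes held 5.66% ± 0.231 of the counts, led by the endothelial Mir126a (32188 ± 1983 CPM), Mir130a and Mir296 (2900 ± 209 CPM). Mir23b lay below Mir126a in both libraries (30786 and 33590 CPM) and below the epithelial Mir429 (25905 ± 1936 CPM). The smooth muscle miRNA Mir143, the most abundant gene, stood at 173802 ± 4537 CPM, far above every member.

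After TMM scaling, the replicates differed little in these genes. Counts were set against each other with an exact binomial test (two-sided, TMM scaling, Benjamini-Hochberg over the 364 genes that reached 20 counts summed), which called 4 of the 6 rows, when 51.9% of all genes tested were called. The rows called higher in replicate 2 were Mir23a and Mir24-2 (24.5% of all genes were called in that direction), and those higher in replicate 1 were Mir23b and Mir27b (27.5% of all genes). The test sees counting error only and compares 2 libraries, and at 50836 and 62785 counts the 1.01-fold difference of Mir23a passed it.

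With TMM scaling Mir24-2 was furthest from equal of the 6, with replicate 2 above replicate 1 by 0.19 on the log2 scale or 1.14-fold (exact test, adjusted p 0.0113), yet 200 of the 364 genes had a larger absolute ratio. Mir23a stood at 0.02 (exact test, adjusted p 0.0456) and Mir23b at -0.02 (0.0155), so with TMM the highest pair differed between pools by very little. With total counts these ratios were -0.11 and -0.15. Mir27b stood at -0.06 (exact test, adjusted p 0.00867), and Mir27a (-0.10, 0.213) and Mir3074-1 (0.02, 0.916) did not pass. The median absolute log2 ratio was 0.04 over the 6 rows and 0.21 over all 364 genes (0.13 and 0.23 with total counts), and the median signed ratio 0.001 and -0.02. Of the 9 vascular rows 3 were called, all higher in replicate 2, with a median of 0.09, beside 51.9% of all genes called and 24.5% in that direction. The epithelial genes had a median of 0.29, with 9 of 10 called higher in replicate 2 (24.5% of all genes). Of the 3 blood genes and 1 liver gene tested, 2 were called, both higher in replicate 1, a direction called in 27.5% of all genes. The hepatocyte Mir122 stood at 994 and 448 CPM in replicates 1 and 2 (-1.02, exact test, adjusted p 1.65e-180) and the red cell Mir451a at 439 and 327 CPM (-0.30, 1.50e-09). The blood genes Mir223 (0.03, exact test, adjusted p 0.513) and Mir144 (-0.11, 0.210) did not pass. Of the 4 striated muscle genes tested, 2 were called, both higher in replicate 2, a direction called in 24.5% of all genes. The median of those 4 genes was 0.78. The part of these marker genes in the members' ratios was not tested.

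The calls depended on the scaling, on the strand counted and on the count minimum. With total counts in place of TMM, which shifts the median log2 ratio of all genes by -0.13, 0 rows were higher in replicate 2. The rows higher in replicate 1 were then 4 (Mir23a, Mir27a, Mir23b and Mir27b). At that setting 57.7% of all 364 genes were called, 46 higher in replicate 2 and 164 higher in replicate 1. Mir23a turned to -0.11, Mir3074-1 to -0.11 without passing, and Mir24-2 (0.06) no longer passed, so that Mir27a (-0.23) was then furthest from equal and Mir24-2 nearest among the 6. With DESeq2 size factors Mir23b turned to 0.001 and Mir27b no longer passed. Mir23a no longer passed with counts from both strands (exact test, adjusted p 0.483), nor Mir23b with a minimum of 100 counts (exact test, 0.0995), nor Mir27b with no minimum (exact test, 0.611). Mir23b turned to 0.02 with no minimum and passed as higher in replicate 2.

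**Figure D4:**
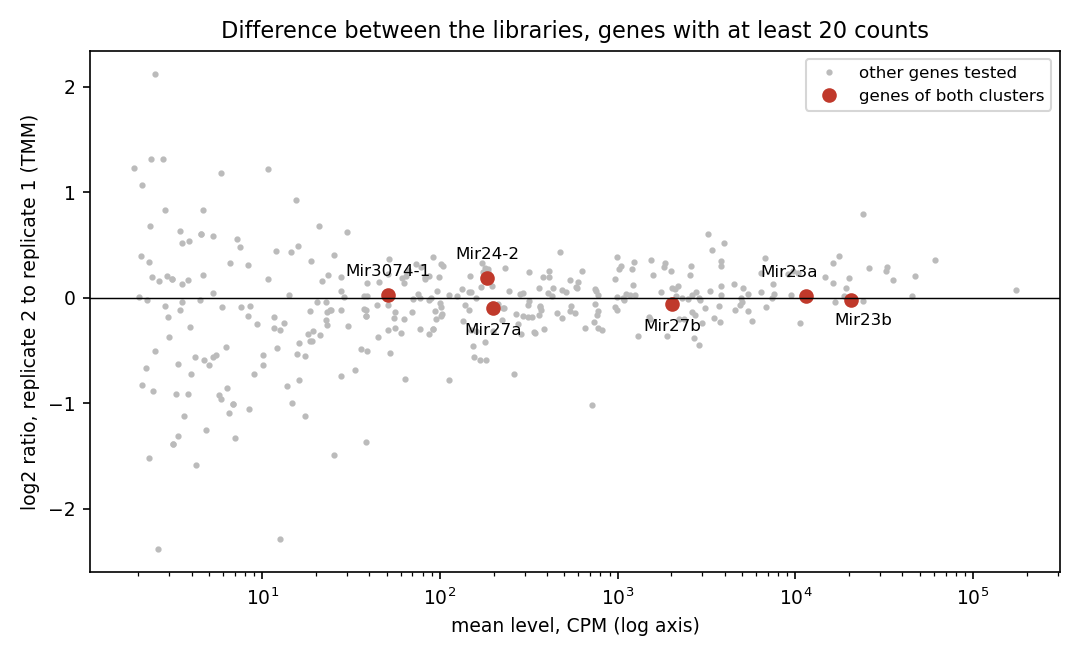
Log2 ratio of replicate 2 to replicate 1 after TMM scaling against mean level in CPM on a log axis, for 364 genes with at least 20 counts summed; the 6 rows of these clusters are in red. They lie between -0.10 and 0.19, inside the cloud of other genes at every level.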

How the data were processed

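MicroRNA-seq libraries of embryonic mouse intestine (1 group, 2 replicates) were used. The authors deposited raw read counts per gene in 3 columns, on mm10 with GENCODE M4, per the file headers in the readmes. Sources used here do not state the aligner, counter or trimming. The column without regard to strand equalled the sum of the per-strand columns in all 1973 rows, and the one used as the strand of the gene held 96.2% and 96.3% of it. Totals exclude 4 rows without a gene, which hold the unmapped reads (19.5% and 17.2%), the multi-mapped reads (26.2% and 25.7%), reads off any gene on the strand used (5.60% and 4.86%) and 0 ambiguous reads.

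Symbols came from GENCODE M21 (1894 of 1973 identifiers, the other 79 with 2 counts), and the members' coordinates and sequences from RefSeq and GENCODE of the same assembly, at identical positions; positions in M4 may differ. Counts were divided by the gene total to give CPM. Replicates were compared with an exact conditional binomial test at an adjusted p of 0.05, since edgeR's quasi-likelihood test needs replicates on each side. TMM factors came from edgeR 4.0.16 and log2 ratios used a prior of 0.5 counts. Alternatives were other scalings (DESeq2 1.42.0 size factors, total counts), count minimums, unstranded counts, other totals and each replicate alone. Other tools were Python 3.11.15, scipy 1.17.1, biopython 1.88, RNAfold 2.7.2 and R 4.3.3.

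Named genes were the members, the 2 genes nearest in level to each, the families and lists given, and Mir126a, Mir143 and Mir429. The members and lists were chosen with earlier results of these data known. Mir126b and Mir142a, on the lists, have no row and were not analysed here.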

Additional observations from a re-analysis of the deposited data

How the results depend on the processing

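The alternatives run could not move the paralog ratios, or the ratios of miR-23 to miR-27 within a cluster, by as much as 1 SD. Unstranded counts left the ratios among the miR-23 and miR-27 genes as they were, since those rows have no opposite-strand reads. Each of 2 replicates alone is within 1 SD of their mean by construction. A ratio of counts summed over the replicates lies between those values. That these ratios kept their direction and size is therefore no test of them. The ratio of Mir27a to Mir24-2 went from 1.08 to 0.971 without replicate 1 and 1.19 without replicate 2. Levels follow the total they are divided by. Without the most abundant gene in it, the chromosome 8 rows summed to 14373 CPM, the chromosome 13 rows to 27318 CPM and all 6 to 41691 CPM. With all reads as the total these were 5985, 11370 and 17355 CPM. Unstranded counts put Mir3074-1 at 91.9 CPM, since they add the reads of the Mir24-1 locus.

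For the replicates, total counts gave 46 genes higher in replicate 2 and 164 higher in replicate 1, against 89 and 100, and turned Mir23a to -0.110 (adjusted p of the exact test 2.22e-36) and Mir3074-1 to -0.105 (0.494). Mir23b turned to 0.00112 with DESeq2 size factors (0.908) and to 0.0230 with no filter (0.00201). The causes were not tested. No paired analysis was possible because the study has 1 group. Genes of few counts are limited by depth: 1 read is 0.235 CPM in replicate 1 and 0.176 CPM in replicate 2.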
